A study of Mus musculus with 6 samples.

Results

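Calcium store release and refill genes are the subject here: 10 genes of the 21959 in the deposited table, taken by symbol. They encode phospholipase C beta (Plcb1, Plcb4), the inositol trisphosphate (IP3) receptors (Itpr1, Itpr2, Itpr3), 2 ryanodine receptors (Ryr2, Ryr3), the SERCA calcium pumps (Atp2a2, Atp2a3) and the store calcium sensor Stim1. Each of the 10 had 1 row in the table, and all 10 passed the filter on low counts.

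RNA was sequenced in bulk from the mouse paraventricular thalamus, a midline thalamic nucleus. The injured animals were wild-type mice with chronic constriction injury (CCI), a model of neuropathic pain made by loose ligatures around a nerve. The controls were wild-type mice with treatment given as none, and no sham operation is named. Strain, sex, age and the time after injury are not given in the sources used here. Each group had 3 libraries, numbered 1 to 3 in CCI and 4 to 6 in control. A group is given as 30 mice, and how many went into a library is not given in the sources used here. The p-values therefore describe variation among libraries and may in part reflect technical variation. The series title places astrocyte activation by lasting neuronal stimulation at the centre of the study, and calcium release from stores is a main signal of astrocytes.

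As background, a receptor coupled to Gq activates phospholipase C beta, which cuts a membrane lipid into diacylglycerol and IP3. IP3 opens IP3 receptors in the endoplasmic reticulum, ryanodine receptors release calcium in response to calcium itself, and SERCA pumps return it to the store. When the store empties, STIM1 in its membrane opens ORAI channels of the plasma membrane. In the mammalian brain Itpr1 is mainly a neuronal receptor, Itpr2 is the main IP3 receptor of astrocytes, and Plcb4 is prominent in thalamic neurons.

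Of the 10 genes, 5 rose in CCI (Plcb1, Itpr2, Ryr2, Ryr3 and Stim1), 1 fell (Atp2a2) and 4 did not pass, by edgeR's quasi-likelihood test at an adjusted p of 0.05 over all 14259 genes tested. Over all tested genes 27.0% were called higher and 25.3% lower. The median log2 fold change of the 10 was 1.12, against 0.06 over all tested genes. The members are long genes, and long genes as a class were higher in CCI. Each call among the 10 is therefore given below with and without a correction for length. Plcb4, Itpr3 and Atp2a3 did not pass with or without the length correction (log2 fold changes of -0.43, 0.75 and 0.84 with it). Many of the other calcium genes named below are given uncorrected only. With the length correction 4 were higher (Plcb1, Itpr2, Ryr2 and Stim1, against 24.8% of all genes) and 2 lower (Itpr1 and Atp2a2, against 23.7%), with a median of 0.68. With GC content added the same genes were called, against 24.0% and 22.8% of all genes; with mean expression added 3 were higher (Plcb1, Ryr2, Stim1, against 21.9%) and Itpr1 was lower (15.5%). The DESeq2 Wald test and limma-voom called the 5 and 1 genes of the uncorrected edgeR test (26.1% and 28.0% of all genes higher, 28.1% and 24.6% lower). On log2(FPKM + 0.1), limma called 8 of the 10 higher (46.5% of all genes) and 1 lower (9.43%). Without CCI replicate 3 the length-corrected counts were 2 higher and 2 lower (18.1% and 17.8%), and without control replicate 5 they were 4 and 2 (29.2% and 29.3%). With the longest transcript in place of the deposited length, 3 were higher (Plcb1, Ryr2 and Stim1, against 24.7%) and 2 lower (Itpr1 and Atp2a2, against 23.6%). Stim1 and Ryr2 were called higher, and stayed so under each of the 16 planned and 3 added alternatives.

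The libraries held 7989139 to 10529886 counts in CCI and 12337448 to 15438268 in control. Levels are CPM, counts scaled to a common library total after edgeR's TMM adjustment. The TMM factor ran from 1.21 to 1.25 in CCI and from 0.686 to 0.90 in control. In CPM, 6 of the 10 genes had every CCI library above every control library (33.6% of all tested genes did), 2 had every one below (29.4%), and 2 overlapped; either kind of separation was seen in 63.0% of tested genes. Markers of cell types were summed in CPM as a check on the tissue. The 8 thalamic neuron markers summed to 1559 to 2227 in CCI and 5368 to 8003 in control, and all 8 fell. Of 8 tested hippocampal and cortical neuron markers 7 rose, with sums of 166 to 208 in CCI and 59.9 to 78.1 in control. Of 10 astrocyte markers 2 rose and 3 fell (sums of 3717 to 4443 in CCI and 8276 to 11121 in control), and without Aldoc, the most abundant of them, they summed to 2655 to 3490 in CCI and 3558 to 4884 in control. Of 7 oligodendrocyte markers 5 rose (17599 to 23129 in CCI, 6770 to 13567 in control), and all 5 tested GABAergic neuron markers rose (104 to 378 in CCI, 48.0 to 75.1 in control). No marker of these 5 lists was at 0 in every library of a group. These sums differ between the groups, and their part in the results below was not tested. In bulk RNA, fewer cells of a type and less RNA per cell cannot be told apart.

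Promoter windows are shown for the 4 genes that rose and have an entry, to give the sequence at their starts; each covers 250 bases before to 50 bases after a RefSeq start on GRCm38.p6. Capitals mark GGGCGG on either strand, the GC box bound by Sp1-type factors.
Stim1, chr7:102267569-102267868, plus strand: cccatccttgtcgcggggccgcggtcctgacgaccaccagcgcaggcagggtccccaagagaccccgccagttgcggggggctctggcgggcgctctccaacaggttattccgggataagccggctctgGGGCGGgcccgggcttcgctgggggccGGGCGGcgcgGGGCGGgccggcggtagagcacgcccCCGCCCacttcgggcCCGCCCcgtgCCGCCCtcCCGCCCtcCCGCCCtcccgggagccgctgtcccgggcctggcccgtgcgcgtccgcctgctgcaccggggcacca
Ryr2, chr13:12106896-12107195, minus strand: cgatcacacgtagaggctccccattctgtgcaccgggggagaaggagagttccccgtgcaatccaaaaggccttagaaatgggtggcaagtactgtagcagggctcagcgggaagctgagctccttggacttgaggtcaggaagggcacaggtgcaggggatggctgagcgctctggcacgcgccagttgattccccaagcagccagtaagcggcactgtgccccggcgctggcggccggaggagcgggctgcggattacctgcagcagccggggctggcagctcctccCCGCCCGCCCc
Itpr2, chr6:146502174-146502473, minus strand: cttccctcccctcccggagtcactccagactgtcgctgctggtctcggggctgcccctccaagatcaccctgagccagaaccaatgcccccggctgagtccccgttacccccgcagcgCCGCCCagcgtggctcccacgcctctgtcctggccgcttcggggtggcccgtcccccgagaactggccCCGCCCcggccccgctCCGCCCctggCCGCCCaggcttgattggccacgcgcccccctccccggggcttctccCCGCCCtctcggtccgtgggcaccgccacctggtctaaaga
Plcb1, chr2:134785914-134786213, plus strand: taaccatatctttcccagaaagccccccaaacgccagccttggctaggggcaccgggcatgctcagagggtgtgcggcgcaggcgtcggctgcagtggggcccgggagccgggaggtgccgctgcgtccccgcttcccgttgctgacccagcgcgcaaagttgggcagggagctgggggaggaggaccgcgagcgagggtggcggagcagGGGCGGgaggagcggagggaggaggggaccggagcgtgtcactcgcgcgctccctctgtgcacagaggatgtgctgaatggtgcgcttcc
Overlapping matches counted separately, GGGCGG occurred 8 times in the Stim1 window, 2 times in Ryr2, 5 times in Itpr2 and once in Plcb1. At least 1 match was found in 35.7% of all 32851 mouse windows of this length. The windows were rich in G and C, at 78.7% in Stim1, 65.3% in Ryr2, 73.3% in Itpr2 and 69.7% in Plcb1, against a median of 52.7% over all windows. TATAAA, found in 13.6% of all windows on either strand, and TGACGTCA, the cAMP response element found in 1.79%, had no match in these 4. These traits were not particular to the genes that rose. GGGCGG occurred 7 times in a Plcb4 window with 84.0% G and C. It occurred 5 times in the Atp2a3 window (68.3%) and once in the Itpr3 window (72.3%). None of these windows had TATAAA or TGACGTCA. Another Plcb4 window had no GGGCGG and 44.3% G and C.

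The phospholipase genes stand at the start of the pathway. Plcb1 (ENSMUSG00000051177, chromosome 2, 134627987 to 135317178, plus strand, GRCm39) encodes an enzyme abundant in cortical and hippocampal neurons. Its level was 53.4, 58.1 and 79.7 CPM in CCI libraries 1 to 3, against 24.8, 35.0 and 26.3 CPM in control libraries 4 to 6. All CCI libraries lay above all controls, and CCI replicate 3 was the highest. Plcb1 rose 2.23-fold (log2 fold change 1.15 ± 0.21 SE, adjusted p = 0.00246), and corrected for length it was at 0.70 ± 0.20 (adjusted p = 0.0186). With the length correction and without CCI replicate 3 it was at 0.53 and did not pass (adjusted p = 0.0700), and Itpr2 was at 0.69 (adjusted p = 0.0545).

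Plcb4 (ENSMUSG00000039943, chromosome 2, 135500931 to 135856513, plus strand) was at 144, 139 and 145 CPM in CCI, against 108, 199 and 152 CPM in control. The tight CCI values lay inside the spread of the controls. The log2 fold change was -0.10 ± 0.22 (adjusted p = 0.727), a call of neither direction. Scaled by the library total as FPKM, the groups did not overlap, at 18.7 to 20.1 in CCI and 10.8 to 15.2 in control, and limma on log2(FPKM + 1) called it higher (0.51, adjusted p = 0.0299). That scale lay 0.51 higher than the TMM fit at the median of all tested genes, and 47.6% of them were called higher on it and 9.64% lower.

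Of the IP3 receptor genes, Itpr2 rose and the others did not pass without correction. Itpr2 (ENSMUSG00000030287, chromosome 6, 146009797 to 146403721, minus strand) was at 27.1, 24.8 and 26.0 CPM in CCI, against 10.9, 8.63 and 12.1 CPM in control. The groups were well apart, and the CCI libraries were close to each other. Itpr2 rose 2.45-fold (1.29 ± 0.19, adjusted p = 8.79e-04). Corrected for length it was at 0.67 ± 0.20 (adjusted p = 0.0213), and with mean expression added at 0.26 (adjusted p = 0.296), where the call was lost.

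Itpr1 (ENSMUSG00000030102, chromosome 6, 108190057 to 108528070, plus strand), the most abundant of the family per length, was at 106, 113 and 113 CPM in CCI, against 121, 165 and 131 CPM in control. Every CCI library lay below every control, by little in the case of control replicate 4. The log2 fold change was -0.33 ± 0.17 and did not pass (adjusted p = 0.130). Against other genes of its length Itpr1 stood low: corrected for length it was at -1.06 ± 0.15 (adjusted p = 0.00101), and with GC content added at -1.10 (adjusted p = 9.16e-04). On log2(FPKM + 1) the sign was the opposite, 0.25 (adjusted p = 0.143), so a direction for Itpr1 depends on the scaling.

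Itpr3 (ENSMUSG00000042644, chromosome 17, 27276278 to 27341197, plus strand), a receptor best known from epithelial and sensory cells, was near the limit of detection. It had 15, 19 and 37 counts in CCI, against 13, 10 and 8 counts in control, or 1.50, 1.73 and 2.85 CPM against 1.16, 1.18 and 0.598 CPM. The groups did not overlap in CPM, but the log2 fold change of 1.09 ± 0.44 did not pass (adjusted p = 0.0642), and with length and mean expression corrected it was -0.25 (adjusted p = 0.663).

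The ratio of Itpr1 to Itpr2 within a library is free of library scaling, and both genes are long (18319 and 14802 bp). In FPKM the ratio was 3.17, 3.67 and 3.51 in CCI, against 8.95, 15.4 and 8.74 in control. The groups did not overlap, and the log2 ratio was 1.78 ± 0.11 in CCI and 3.41 ± 0.46 in control (SD, n = 3 each). The exact two-sided permutation test gave p = 0.1, the smallest that 3 against 3 libraries allow, and 0.125 adjusted over the 5 ratios compared. Itpr2 made up 21.9% ± 1.37 of the summed FPKM of the family in CCI and 8.69% ± 2.33 in control (SD, n = 3 each), and Itpr1 made up 74.4% to 76.7% in CCI and 88.4% to 92.7% in control.

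**Figure D1:**
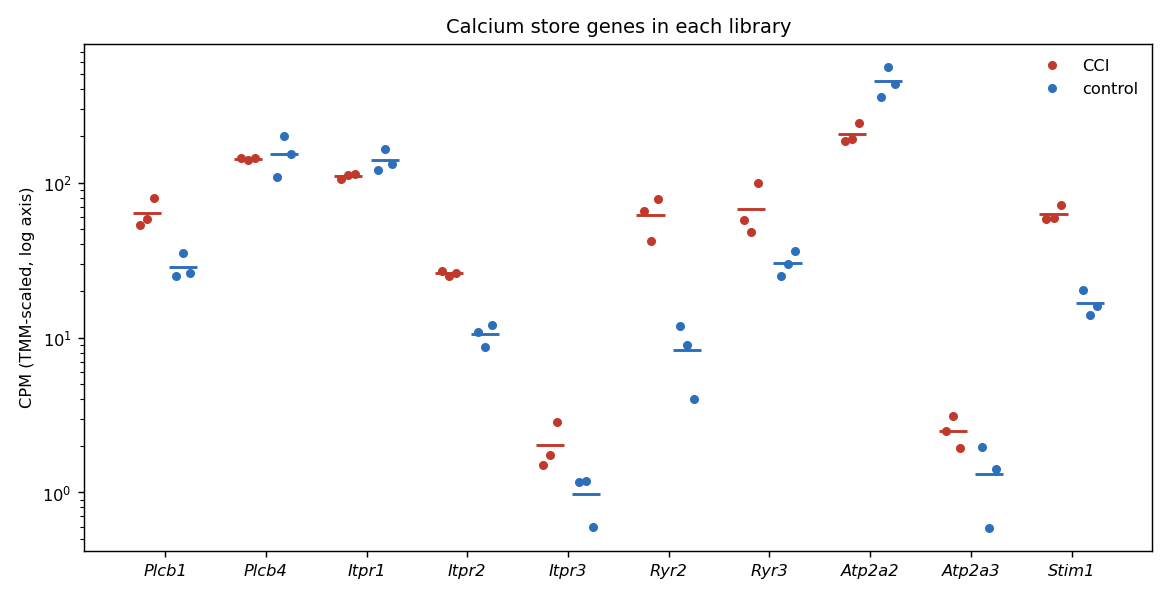
TMM-scaled CPM (log axis) of the 10 genes in each library, with CCI left of control; points are libraries and bars are group means. Stim1, Ryr2, Itpr2, Plcb1 and Ryr3 lie higher in all 3 CCI libraries, Atp2a2 lies lower in them, and Plcb4 and Atp2a3 overlap between groups.

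Ryanodine receptors amplify release. Ryr2 (ENSMUSG00000021313, chromosome 13, 11567988 to 12121831, minus strand), the receptor of heart muscle that is also found in brain neurons, had 650, 462 and 1015 counts in CCI, against 133, 76 and 54 in control. Its level was 65.1, 42.2 and 78.2 CPM in CCI, against 11.9, 8.98 and 4.04 CPM in control. The lowest CCI library was more than 3 times the highest control. Ryr2 rose 7.50-fold (2.91 ± 0.39, adjusted p = 6.04e-04), the largest change of the 10 genes, and was at 1.87 ± 0.37 corrected for length (adjusted p = 0.00386). Of the tested genes 20 are longer than Ryr2, at 28790 bp, so the length trend is thinly supported at that end.

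Ryr3 (ENSMUSG00000057378, chromosome 2, 112461700 to 113047441, minus strand), known from hippocampal neurons among others, was at 57.0, 48.1 and 98.8 CPM in CCI, against 25.1, 29.9 and 36.1 CPM in control. The groups did not overlap, and CCI replicate 3 stood well above the other CCI libraries. GABAergic neuron markers, too, summed highest in CCI replicate 3, at 378 CPM, against 104 and 188 in CCI replicates 1 and 2. Among CCI libraries the hippocampal and cortical, oligodendrocyte, astrocyte and microglia sums were also highest in replicate 3. The thalamic, pan-neuronal, habenula, ependymal, choroid plexus and Purkinje cell sums were lowest there. The part of these differences in the Ryr3 level was not tested. Ryr3 rose 2.24-fold (1.16 ± 0.28, adjusted p = 0.00836), and without CCI replicate 3 the log2 fold change was 0.79 (adjusted p = 0.0247). Corrected for length it was at 0.39 ± 0.27 and did not pass (adjusted p = 0.255). The opposite-strand gene Aven overlaps the Ryr3 locus, with 315 counts over all libraries, and the strand setting of the counting is not given in the sources used here.

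The balance between these receptors was compared within libraries. The ratio of Ryr2 to Ryr3 FPKM was 0.753, 0.578 and 0.522 in CCI, against 0.312, 0.198 and 0.0738 in control, without overlap (log2 difference 1.88, exact two-sided permutation p = 0.1, adjusted 0.125). Ryr2 held 37.1% ± 4.28 of the summed ryanodine receptor FPKM in CCI and 15.5% ± 8.39 in control (SD, n = 3 each). Ryr1, the skeletal muscle receptor and a gene of the wider lists, held 2.25% ± 0.26 in CCI and 1.10% ± 0.53 in control (SD, n = 3 each).

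Of the 2 pump genes among the 10, Atp2a2 fell and Atp2a3 did not pass. Atp2a2 (ENSMUSG00000029467, chromosome 5, 122591576 to 122640288, minus strand), the SERCA2 gene that supplies the housekeeping pump, was at 185, 191 and 242 CPM in CCI, against 359, 557 and 436 CPM in control. Every CCI library lay below every control, and the highest CCI value was replicate 3. Atp2a2 fell by 1.13 on the log2 scale (SE 0.22, adjusted p = 0.00329). Length correction left it at -1.26 ± 0.22 (adjusted p = 0.00240); the median log2 fold change of genes in its length range was 0.17. Correction for mean expression as well as length took it to -0.26 (adjusted p = 0.291), where the call was lost.

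Atp2a3 (ENSMUSG00000020788, chromosome 11, 72851995 to 72883870, plus strand), a SERCA gene known from blood and endothelial cells, had 25, 34 and 25 counts in CCI, against 22, 5 and 19 in control. The groups overlapped in CPM, and the log2 fold change of 0.88 ± 0.44 did not pass (adjusted p = 0.125). The third SERCA gene, Atp2a1 of fast skeletal muscle, which belongs to the wider lists and was named after its values were seen, was low at 0.837 ± 0.210 CPM in CCI and 3.36 ± 0.69 CPM in control (SD, n = 3 each) and fell (-1.98 ± 0.36, adjusted p = 0.00240). Atp2a2 made up 97.9% ± 0.41 of the summed SERCA FPKM in CCI and 98.3% ± 0.49 in control (SD, n = 3 each). The ratio of Atp2a2 to Atp2a3 was 64.1, 53.5 and 109 in CCI, against 159, 818 and 266 in control, where the 5 Atp2a3 counts of control replicate 5 set the highest ratio (exact two-sided permutation p = 0.1, adjusted 0.125).

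Stim1 (ENSMUSG00000030987, chromosome 7, 101917013 to 102086526, plus strand) was at 58.2, 58.8 and 72.0 CPM in CCI, against 20.3, 14.1 and 15.9 CPM in control. The groups were far apart relative to their spread, at 63.0 ± 7.82 CPM in CCI and 16.8 ± 3.22 CPM in control (SD, n = 3 each). Stim1 rose 3.75-fold (1.91 ± 0.19, adjusted p = 2.36e-04). It stayed at 1.48 ± 0.19 corrected for length (adjusted p = 7.10e-04), 1.15 with GC content added and 1.55 with mean expression added. Its relative Stim2, which encodes the sensor of smaller store losses, did not pass (-0.36 ± 0.19, adjusted p = 0.131). Stim1 held 57.6% ± 1.74 of the summed STIM FPKM in CCI (SD, n = 3), against 18.7% to 25.3% in control. Per deposited length, the more abundant STIM transcript was Stim1 in every CCI library and Stim2 in every control library. For Stim1 that length is 2.38 times the longest annotated transcript, so this order may depend on the length used.

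**Figure D2:**
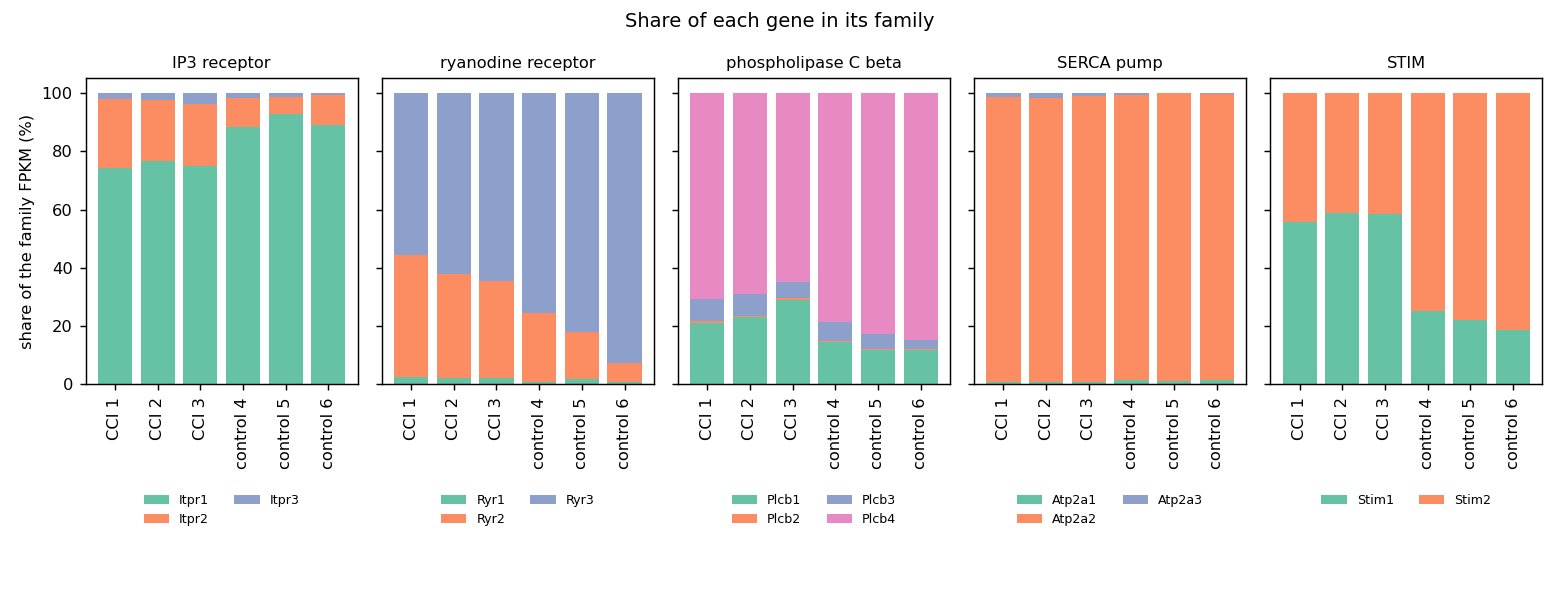
Share of each gene in the summed FPKM of its family (%), one bar per library, CCI libraries left of control libraries. Itpr2, Ryr2, Plcb1 and Stim1 take larger shares in the CCI bars, for example 55.6% to 58.7% for Stim1, against 18.7% to 25.3% in the control bars.

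Phospholipase C beta genes were compared in the same way. The ratio of Plcb1 to Plcb4 was 0.298, 0.337 and 0.444 in CCI, against 0.185, 0.142 and 0.139 in control, without overlap (log2 difference 1.20, exact two-sided permutation p = 0.1, adjusted 0.125). Plcb4 held 68.2% ± 2.95 of the family FPKM in CCI and 82.0% ± 3.09 in control (SD, n = 3 each). The fifth ratio, Itpr3 to Itpr2, overlapped between groups (log2 difference -0.25, exact permutation p = 0.8).

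Levels of different genes were compared as FPKM, which divides by gene length. In CCI the order was Atp2a2 (41.7 ± 6.36 FPKM), Plcb4 (19.6 ± 0.74), Stim1 (7.48 ± 0.94), Itpr1 (7.43 ± 0.18), Plcb1 (7.05 ± 1.55), Ryr3 (4.41 ± 1.77), Ryr2 (2.65 ± 0.80), Itpr2 (2.16 ± 0.13), Atp2a3 (0.584 ± 0.131) and Itpr3 (0.277 ± 0.0985). The neighbours from Stim1 down to Itpr2 overlapped in their ranges, and the other neighbours did not. In control the order was Atp2a2 (59.3 ± 5.42 FPKM), Plcb4 (13.6 ± 2.38), Itpr1 (6.10 ± 0.15), Plcb1 (2.07 ± 0.08), Stim1 (1.34 ± 0.42), Ryr3 (1.30 ± 0.30), Itpr2 (0.590 ± 0.167), Ryr2 (0.235 ± 0.126), Atp2a3 (0.215 ± 0.130) and Itpr3 (0.0877 ± 0.0292). There the ranges of Stim1 and Ryr3 overlapped, as did those of Ryr2 and Atp2a3, and those of Atp2a3 and Itpr3. All errors are SD with n = 3.

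The length behind these FPKM values is the union of all exons of a gene, and it equalled the GENCODE M21 exon union within 10% for 99.2% of genes with an entry. It is 2.38 times the longest annotated transcript for Stim1 (10371 against 4362 bp), 1.86 times for Itpr1 and 1.71 times for Ryr2, and close to it for Itpr3 (9019 against 8990 bp). A gene whose union is much longer than the transcripts it makes is given a lower FPKM. The order and the family shares above carry that uncertainty. The uncorrected comparison of one gene between groups does not use the length, but the length-corrected values do. Corrected by the longest transcript, Stim1 was at 1.82 ± 0.18 (adjusted p = 3.11e-04) and Ryr2 at 1.91 ± 0.37 (adjusted p = 0.00372), whereas Itpr2 was at 0.47 ± 0.20 and did not pass (adjusted p = 0.0806).

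Gene length was related to the CCI difference across the whole table. Tested genes were divided into 10 bins of equal number by length. In the shortest bin the median log2 fold change was -0.32, with 12.2% called higher and 30.5% lower. In the longest, from 10105 bp up, it was 0.72, with 56.4% higher and 9.68% lower. At the long end the trend was present in each library: genes of the longest bin deviated from their own mean over libraries by a median of 0.31 to 0.37 (log2 CPM) in CCI libraries and -0.39 to -0.30 in control libraries. At the short end it was uneven: the shortest bin deviated by -0.17 to -0.11 in CCI libraries and by 0.02, 0.41 and 0.04 in control libraries 4, 5 and 6, and without control replicate 5 its median log2 fold change was -0.19. The marker sums given above differ between the same groups; the cause of the length trend was not tested.

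All 10 calcium store genes are longer than the median gene of the table (3505 bp), and 6 fall in the longest bin: Plcb1, Itpr1, Itpr2, Ryr2, Ryr3 and Stim1. Against that bin's share of 56.4% called higher, 5 of these 6 rose. Within the bin, Ryr2 had a higher log2 fold change than 99.1% of genes and Stim1, placed in it by its deposited length, than 90.7%. Itpr2 exceeded 74.8%, Ryr3 69.8% and Plcb1 69.3%, whereas Itpr1 exceeded 15.0%. The median length of that bin is 12689 bp, and Itpr2 (14802 bp), Itpr1 (18319 bp), Ryr3 (18977 bp) and Ryr2 (28790 bp) are longer. Their ranks are thus mostly against shorter genes. Atp2a2 lay above 9.33% of the genes of its own bin, from 5363 to 6342 bp, in which 22.2% fell.

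**Figure D3:**
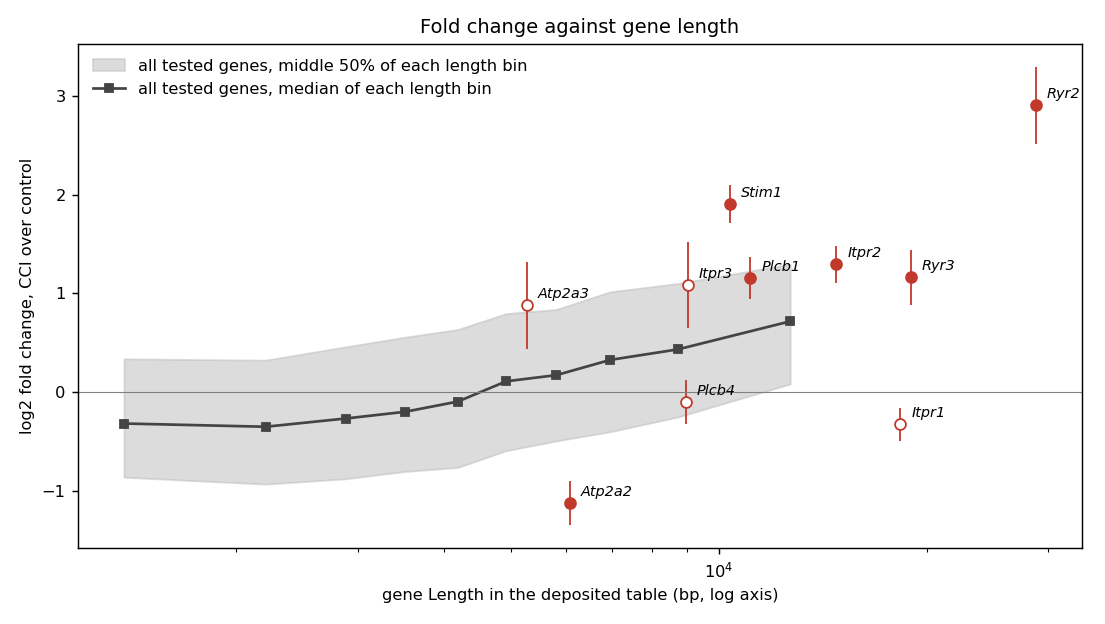
Log2 fold change (CCI over control, ± SE, no length correction) of the 10 genes against gene length (bp, log axis); filled points passed an adjusted p of 0.05, squares are medians of 10 length bins of all tested genes at the bin's median length, and the band is the middle 50% of each bin. The last median stands at 12689 bp, and Itpr2, Itpr1, Ryr3 and Ryr2 lie to the right of it. Ryr2 and Stim1 lie far above the median of their bin, Plcb1, Itpr2 and Ryr3 nearer to it, and Itpr1 and Atp2a2 below that of theirs.

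**Figure D4:**
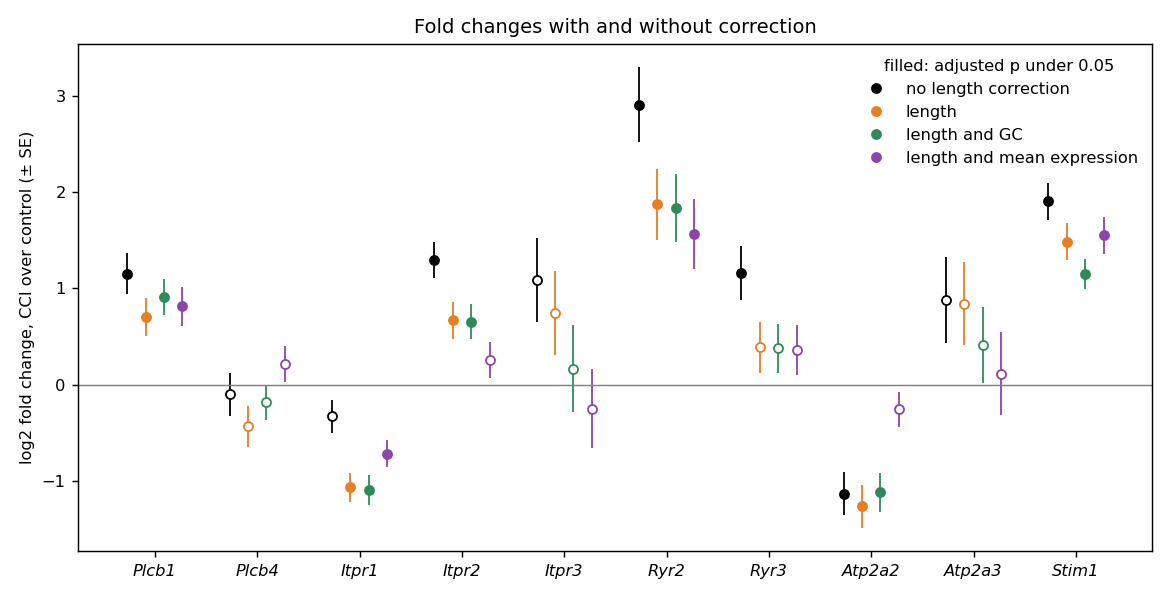
Log2 fold change (CCI over control, ± SE) of each gene in 4 fits, uncorrected and corrected for length, length and GC content, or length and mean expression; filled points passed an adjusted p of 0.05. Stim1, Ryr2 and Plcb1 are filled in all 4 fits, Itpr1 only in the 3 corrected ones, and Ryr3 only in the uncorrected one.

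Other genes of calcium handling were grouped by role into 7 lists, of which 120 genes were in the table and 110 were tested. Without correction 28 rose (27.0% of all tested genes), 35 fell (25.3%) and 47 did not pass. The list of SERCA regulators, store calcium-binding proteins and store chaperones, which also holds Atp2a1, stood lower: none of 16 tested rose and 11 fell, with a median log2 fold change of -1.15 against 0.06 over all genes. The SERCA-binding thioredoxin-like protein gene Tmx1 was at 83.7 ± 14.7 CPM in CCI and 280 ± 17.8 in control (log2 fold change -1.74, adjusted p = 2.67e-04). The secretory calcium-binding protein genes Rcn2 (-1.94) and Calu (-0.94) also fell, and Calu was at -0.43 (adjusted p = 0.0619) with length and mean expression corrected. With length corrected, 1 member of this list was higher (24.8% of all genes) and 11 were lower (23.7%), with a median of -0.99. With length and mean expression corrected, 1 was higher (21.9% of all genes) and 5 were lower (15.5%), with a median of -0.21.

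Upstream of IP3, 6 of 11 tested Gq and phospholipase genes rose (27.0% of all tested genes) and 1 fell (25.3%). The median length of this list is 6960 bp, and in the length bin from 6342 to 7780 bp 37.2% of all genes were called higher. With length corrected 4 were higher (24.8% of all genes) and 1 lower (23.7%). With length and GC content corrected 2 were higher (24.0% of all genes) and 2 lower (22.8%). Plcd1 and Plcd3, phospholipases of the delta class with low levels, rose by 2.01 ± 0.30 and 1.77 ± 0.30. Gnaq encodes the G protein alpha subunit that activates phospholipase C beta. Gnaq fell to 179 ± 24.5 CPM in CCI, against 385 ± 24.0 CPM in control (-1.11 ± 0.18). It was at -1.24 corrected for length (adjusted p = 8.79e-04) and at -1.06 with GC content added (adjusted p = 0.00167). With length and mean expression corrected it was at -0.31 (adjusted p = 0.212). Of 20 tested genes of IP3 metabolism and IP3 receptor partners 4 rose (27.0% of all tested genes) and 3 fell (25.3%). Itpkb, a kinase that turns IP3 into IP4, rose by 1.42 ± 0.18, but was at 0.48 (adjusted p = 0.0832) with length and GC content corrected. Impa1, which recycles inositol, fell (-1.58 ± 0.15), as did the phosphatidylinositol synthase gene Cdipt (-1.10 ± 0.18), at 0.08 (adjusted p = 0.762) with length and mean expression corrected.

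Among 18 tested partners of ryanodine receptors 6 rose (27.0% of all tested genes) and 8 fell (25.3%), with a median of -0.45. With length corrected 6 were higher (24.8% of all genes) and 7 lower (23.7%), with a median of -0.23. With length and mean expression corrected 7 were higher (21.9% of all genes) and 5 lower (15.5%), with a median of 0.47. Fkbp1b, whose protein binds and steadies RYR2, was at 17.6 ± 2.66 CPM in CCI and 57.0 ± 4.55 CPM in control (SD, n = 3 each), a log2 fold change of -1.70 ± 0.17 (adjusted p = 2.36e-04). It was at -1.14 or lower in each of the corrected fits. Asph, whose locus also encodes the ryanodine receptor partner junctin, fell (-1.84 ± 0.22), and the endolysosomal channel gene Tpcn1 rose (1.54 ± 0.21). Ryr1 itself, named after its values were seen, was at 2.85 ± 0.86 CPM in CCI and 0.455 ± 0.222 CPM in control (2.69 ± 0.47), and did not pass with length and GC content corrected (adjusted p = 0.0830).

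Of 17 tested store-operated entry genes 3 rose (27.0% of all tested genes) and 3 fell (25.3%). Orai1, Orai2 and Orai3, the channels that STIM1 opens, did not pass (0.17, 0.30 and -0.20). Saraf, which turns store-operated entry off, fell (-1.21 ± 0.21) but was at 0.11 (adjusted p = 0.718) with length and mean expression corrected. The cation channel gene Trpc5 rose (1.42 ± 0.23).

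Of the calcium extrusion genes 7 of 11 tested rose (27.0% of all tested genes) and 1 fell (25.3%), with a median of 1.25. The list is of long genes, with a median of 9694 bp, and in the length bin from 7781 to 10100 bp 43.0% of all genes were called higher. With length corrected 6 were higher (24.8% of all genes) and 3 lower (23.7%). The sodium-calcium exchanger gene Slc8a1 was at 160, 183 and 215 CPM in CCI, against 42.5, 52.2 and 51.5 CPM in control (1.93 ± 0.18, and 1.17 corrected for length). The plasma membrane pump gene Atp2b3 rose (1.38 ± 0.19 SE). The gene that fell, Atp2c1 (-1.20 ± 0.17), encodes a Golgi pump. Of 17 tested mitochondrial uptake and contact genes 2 rose (27.0% of all tested genes) and 8 fell (25.3%). With length corrected 2 were higher (24.8% of all genes) and 9 lower (23.7%). With length and mean expression corrected 4 were higher (21.9% of all genes) and 2 lower (15.5%). Mcub, an inhibitory subunit of the uniporter, fell (-1.73 ± 0.25), as did the outer membrane channel gene Vdac2 (-1.62 ± 0.24), while Pacs2, of the contacts between store and mitochondria, rose (1.80 ± 0.25). Vdac2 was at -0.41 (adjusted p = 0.0893) with length and mean expression corrected.

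**Figure D5:**
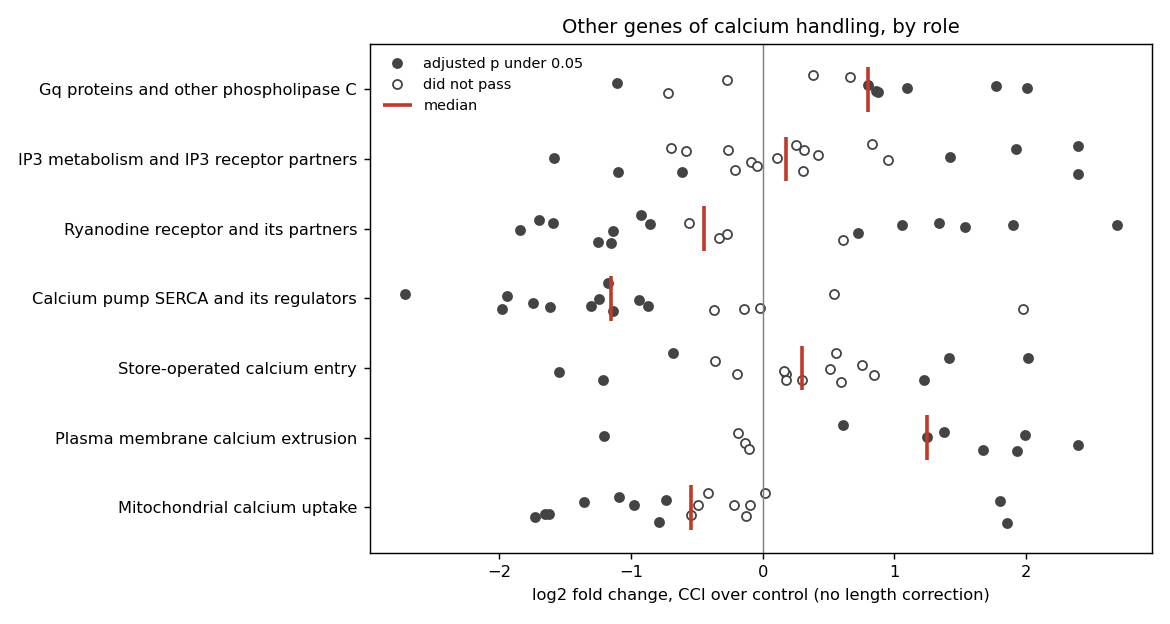
Log2 fold changes (CCI over control, no length correction) of the 110 tested genes of the 7 wider lists, one point per gene, filled where the adjusted p was under 0.05; red lines are list medians. The SERCA regulator list has its median at -1.15 and the extrusion list at 1.25.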

How the data were processed

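The members and gene lists were chosen with earlier results of these data known. The submitters' processing notes name StringTie 2.2.1, DESeq 1.38.3, HTSeq 0.9.1, HISAT2 2.1.0, fastp 0.22.0 and GRCm39, without roles. Per the labels' protocols, libraries were poly-A selected and random-primed. Counts and FPKM per library are both the authors' deposited values, per the file headers. Dividing a deposited count by Length and its column total gave the deposited FPKM.

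Tests across genes used R 4.3.3 and edgeR 4.0.16 on the counts (filterByExpr, TMM, quasi-likelihood F-test, Benjamini-Hochberg adjustment over all tested genes, threshold 0.05). A standard error (SE) was taken as the size of the log2 fold change divided by the square root of F. The length correction removed a natural spline (5 degrees of freedom) of log2 Length from each library through offsets, and other fits added GC content (GENCODE M21, by Ensembl identifier, 99.9% of tested genes) or mean expression. Alternatives were DESeq2 1.42.0 size factors and Wald test, limma 3.58.1 (voom, and log2(FPKM + 1) or log2(FPKM + 0.1)), other filters and leaving out each library; 3 more were added after seeing the data. The correction was tested on simulated data. From each wider list the 3 genes with the smallest p and at least 1 FPKM in the higher group were named, except for 1 that is not reported here; Stim2, the Orai genes, Atp2a1 and Ryr1 were added after values were seen. Family shares and ratios used FPKM.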

Additional observations from a re-analysis of the deposited data

How the results depend on the processing

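The uncorrected result of 5 higher and 1 lower among the calcium store genes held, with those genes called, under DESeq2 size factors, both other filters, the DESeq2 Wald test, limma-voom and without each library in turn (5 to 5 higher, 1 to 1 lower). On log2(FPKM + 1) and log2(FPKM + 0.1), 8 and 8 were higher, with medians of 0.75 and 1.42; over all genes 6785 and 6632 were higher and 1374 and 1345 lower, and over the wider lists 48 and 48 higher and 17 and 16 lower. Those scales lay 0.51 and 0.60 above TMM at the median gene, and 83.2% and 83.1% of their calls were higher, against 51.6%. On them Plcb4 was at 0.51 and 0.54 and Itpr1 at 0.25 and 0.28, both opposite in sign to the TMM fit. Without each library Plcb4 ran from -0.34 to 0.10 (without control replicate 5), and it was positive with length and mean expression corrected (0.22), and in that fit Itpr3 was at -0.25. Corrected for length, or length and GC content, 2 and 2 genes were lower and the median was 0.68 and 0.40. With length and mean expression 3 genes were higher, the median was 0.24, 2213 genes in all were lower, and 16 of the wider lists. Alternatives added after seeing the data joined the length correction with leaving out a library: without CCI replicate 3, 2 were higher and 2 lower (median 0.48), and without control replicate 5, 2 were lower (median 0.52). A further one used the longest transcript as the length: 3 were higher and 2 lower (median 0.45). Without each library in turn and with no length correction, the median of the 10 genes ran from 0.87 (without CCI replicate 3) to 1.25, calls over all genes from 2881 to 4560 higher and 2630 to 4415 lower, and over the wider lists from 22 to 32 higher and 29 to 43 lower. The log2 ratio difference ran from -1.77 to -1.36 for Itpr1 to Itpr2, 1.30 to 2.33 for Ryr2 to Ryr3, 1.04 to 1.33 for Plcb1 to Plcb4, -2.70 to -1.51 for Atp2a2 to Atp2a3 and -0.68 to 0.051 for Itpr3 to Itpr2. The cause of these differences was not tested. No paired analysis was possible because the groups share no replicate numbers. Depth limits Itpr3 and Atp2a3, with 31 and 46 counts over the control libraries.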

Other observations

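Markers of other cell types were summed in CPM in the same way. Pan-neuronal markers summed to 3521 to 3895 in CCI and 7341 to 9706 in control, with 1 of 8 higher and 2 lower; without Snap25, the most abundant of them, they summed to 2036 to 2343 in CCI and 2581 to 2605 in control. Habenula markers summed to 201 to 560 in CCI and 435 to 1580 in control (2 of 6 lower). Microglia markers summed to 124 to 168 in CCI and 205 to 267 in control (1 of 6 higher, 1 lower). Mural and smooth muscle markers summed to 126 to 156 in CCI and 224 to 302 in control (1 of 5 tested higher, 2 lower), and 1 of that list was at 0 in every control library. Endothelial markers summed to 149 to 165 in CCI and 155 to 194 in control (2 of 6 higher, 1 lower). Ependymal markers summed to 112 to 199 in CCI and 64.9 to 182 in control (2 of 5 higher). Choroid plexus markers summed to 1992 to 2855 in CCI and 280 to 4127 in control, with none of 5 called by edgeR. Markers of Purkinje cells, which hold much Itpr1, summed to 214 to 406 in CCI and 779 to 1044 in control (2 of 3 tested lower), most of it in every library Calb1, a gene of other neurons too. Blood cell markers summed to 355 to 371 in CCI and 168 to 435 in control (2 of 4 tested higher).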
